A study of Mus musculus with 2 samples.

Results

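Fgfbp3 and the fibroblast growth factor (FGF) genes read with it, Fgf2, Fgfr1, Fgfr2 and Fgfr3, were followed through droplet single-cell RNA sequencing of the mouse retina. The 5 genes are the rows with these symbols among the 32285 genes of the deposited count matrices. They were picked with earlier results on these retinas known: Fgfbp3 was already known to differ between the light conditions. The difference of Fgfbp3 between lights is therefore given as a description. One library came from retina of mice kept in short-wavelength light and the other from retina of mice kept in full-spectrum white light. In both groups exposure began at postnatal day 14 and lasted 2 weeks, and the retina was then taken, minced, digested and loaded whole. Strain, sex and the number of animals behind each library are not given in the sources used here, and no genetic change is named for either group. With 1 library per group, the spread between animals was not measured, no p-value was computed, and light and library cannot be told apart.

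FGFs are secreted ligands that bind receptor tyrosine kinases on the cell surface, with heparan sulfate chains as a required partner. The activated receptors signal through adaptor proteins to the RAS and ERK kinases, and ERK signalling switches on its own brakes, among them the Sprouty and DUSP genes. FGF binding proteins such as the product of Fgfbp3 are secreted carriers that release FGFs from heparan sulfate. In the retina, FGF2 is known as a survival factor for photoreceptors whose expression rises when they are stressed, and Müller glia, the radial support cells, respond to FGFs through ERK.

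A unique molecular identifier (UMI) counts 1 captured RNA molecule. The short-wavelength library held 51681469 UMIs in 16106 droplets and the white-light library 20952589 UMIs in 5707 droplets, with medians of 2434 and 2784 UMIs per droplet. The libraries shared 26 cell barcodes, 0.161% and 0.456% of each. Droplets were sorted into classes by gates on the UMIs of marker genes: a class needed 5 UMIs from at least 3 of its markers, making up at least 0.75% of the droplet's UMIs. The levels behind the gates were set after the data were seen. Rod-like droplets, called rods here, numbered 15047 in short-wavelength light and 5117 in white light, which was 93.5% and 89.9% of the droplets kept. Cones numbered 476 and 186, rod bipolar cells 145 and 56, Müller glia 99 and 48, and microglia or macrophages 45 and 24. These 5 classes, with at least 20 droplets in each library, were compared. No droplet passed the gates of amacrine, horizontal, ganglion, astrocyte, endothelial, pericyte or pigment epithelial cells. This allows a share of up to 0.0186% and 0.0527% for droplets past each gate, and sets no limit on cells below them. The retina label thus rests here on photoreceptors, bipolar cells and glia. Erythrocyte gates were passed by 7 droplets in short-wavelength light and 57 in white light.

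RNA of lysed cells can enter any droplet, so the level of Gnat1, the rod transducin, was read beside each member. Gnat1 stood at 3260 and 3515 counts per 1000000 UMIs (CPM) in rods, and at 656 and 778 CPM in Müller glia, in short-wavelength and white light. Intervals throughout are exact 95% Poisson or binomial intervals and cover counting error only, not the difference between animals. Values are given in the order short-wavelength light, then white light, unless stated.

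Fgfbp3, ENSMUSG00000047632, is a 2-exon protein-coding gene of 2066 bases on the minus strand of chromosome 19 (mm10, 36917550 to 36919615). It was found in photoreceptors, rod bipolar cells and Müller glia, and its level in photoreceptors was higher in the short-wavelength library. In rods it reached 32.4 CPM (30.8 to 34.1, from 1475 UMIs) in short-wavelength light and 16.2 CPM (14.4 to 18.2, from 290 UMIs) in white light, a ratio of 2.00 (1.76 to 2.28). The 2 intervals do not overlap. The share of rods with an Fgfbp3 UMI was 9.04% and 5.51%, and 3.08% and 1.67% after every rod was thinned to 1000 UMIs. In cones the level was 53.9 CPM (46.2 to 62.5) and 27.5 CPM (18.8 to 38.9), a ratio of 1.96 (1.34 to 2.95) on 175 and 32 UMIs. Without the deepest droplets of each library the log2 ratio in cones moved from 0.97 to 0.41, with an interval of -0.57 to 1.39, and with every droplet thinned to 1000 UMIs it was 1.65 (-0.07 to 4.02). In Müller glia the level was 60.1 and 31.0 CPM, from only 34 and 10 UMIs, and the interval of the ratio, 0.937 to 4.40, spanned 1. Rod bipolar cells stood at 32.9 and 37.4 CPM (31 and 16 UMIs), with a ratio of 0.880 (0.467 to 1.72). Microglia or macrophages held 1 and 2 Fgfbp3 UMIs.

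Within each library Fgfbp3 was above the rod level in cones, 1.66-fold (1.41 to 1.95) and 1.70-fold (1.14 to 2.45). Müller glia were 1.86-fold (1.28 to 2.61) and 1.91-fold (0.908 to 3.57) above rods. The order of the classes in short-wavelength light was Müller glia, cones, rod bipolar cells, rods and microglia or macrophages. The intervals of each neighbouring pair overlapped, except those of rods and microglia or macrophages. In white light the order was rod bipolar cells, Müller glia, cones, rods and microglia or macrophages, and the intervals of cones and rods alone did not overlap between neighbours. Carried-over rod RNA keeps its genes in 1 ratio. Fgfbp3 per 1000 Gnat1 UMIs was 9.94 and 4.61 in rods, 48.4 and 19.95 in cones, 49.8 and 41.5 in rod bipolar cells and 91.6 and 39.8 in Müller glia. In microglia or macrophages it was 4.33 and 10.8. As rods made up most droplets, they still held 84.1% and 79.2% of all Fgfbp3 UMIs, out of 1753 and 366 in the droplets kept.

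**Figure D1:**
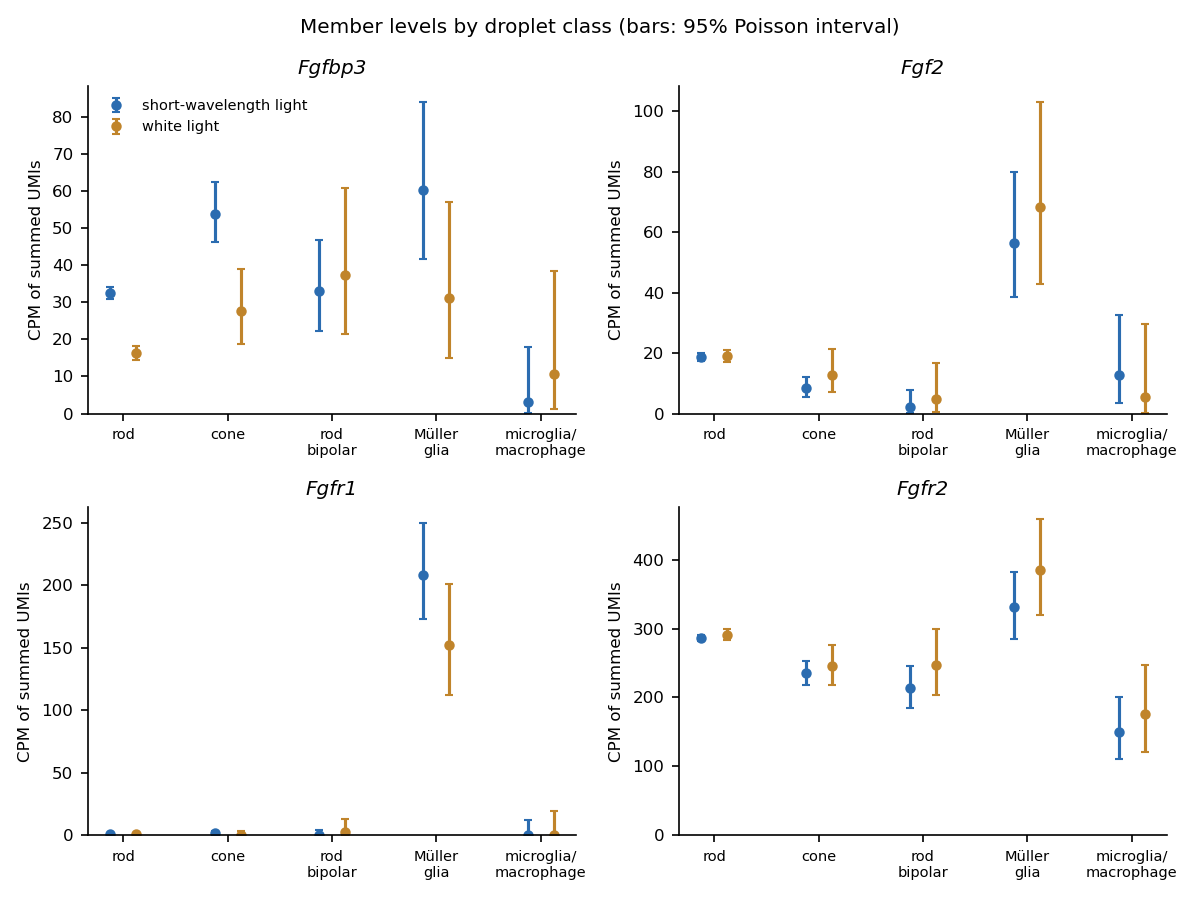
CPM of summed UMIs for Fgfbp3, Fgf2, Fgfr1 and Fgfr2 (vertical axes, each on its own scale) in 5 droplet classes, with 1 point per library and bars for the 95% Poisson interval. Fgfbp3 in rods and cones is higher in the short-wavelength library (32.4 against 16.2 CPM in rods), while Fgfr1 stands at 209 and 152 CPM in Müller glia and near 0 in the other classes.

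To place the rod difference of Fgfbp3, all genes with at least 50 UMIs over both libraries and 20 CPM in one were compared in rods. Of 7360 such genes, 3 (0.0408%) had an interval wholly above 1.5-fold in short-wavelength light, and 5 (0.0679%) had one wholly below the inverse. Fgfbp3 ranked 1 by its ratio, and since it was chosen for this difference nothing is read from the rank. The other higher genes were Bc1, a small non-coding RNA of neurons, at 1.93-fold (1.74 to 2.14), and 1 predicted gene. Itpr2, an inositol trisphosphate receptor at 1.46-fold (1.38 to 1.54), and Bnip3, a mitophagy gene at 1.54-fold (1.37 to 1.73), lay just outside the limit. The 5 lower genes were Kcnip4, Fos, Hbb-bs, Zfp804b and 1 predicted gene, with the haemoglobin transcript Hbb-bs at 30.7 and 61.2 CPM. Of the other members Fgfr2 alone reached these minimum values in rods, and its ratio was 0.983, while Fgf2, Fgfr1 and Fgfr3 were below 20 CPM.

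Rods of the libraries also differed in depth, in the share of UMIs from the nuclear RNA Malat1 (56116 and 50914 CPM) and in mitochondrial share. The rods of both libraries were therefore divided together into 5 parts of equal size by each of these. Fgfbp3 was higher in short-wavelength light in every part. The ratio ran from 1.72 to 2.86 over the parts by total UMIs, from 1.69 to 2.49 over those by Malat1 share and from 1.62 to 2.44 over those by mitochondrial share. Its interval lay above 1 in 5 of 5 parts of each kind. The parts are cuts of the same 2 libraries, and Fgfbp3 was chosen for this difference, so they are not repeats of it. In the deepest part, with medians of 5376 and 5825 UMIs, Fgfbp3 stood at 30.4 and 15.4 CPM. In the shallowest part it stood at 37.2 and 19.8 CPM, the latter from 20 UMIs.

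Markers of other classes were also read in the rods. The 8 cone markers summed to 240 and 214 CPM in rods, 1.12-fold higher (1.08 to 1.16) in short-wavelength light, with 3 of 8 higher and 1 lower. The 8 rod bipolar markers summed to 782 and 843 CPM, the 12 Müller glia markers to 107 and 112 CPM and the 11 microglia or macrophage markers to 29.3 and 27.5 CPM. The 8 rod markers themselves summed to 21533 and 22853 CPM, 0.942-fold. The part of carried-over cone RNA in the Fgfbp3 level of rods was not tested.

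**Figure D2:**
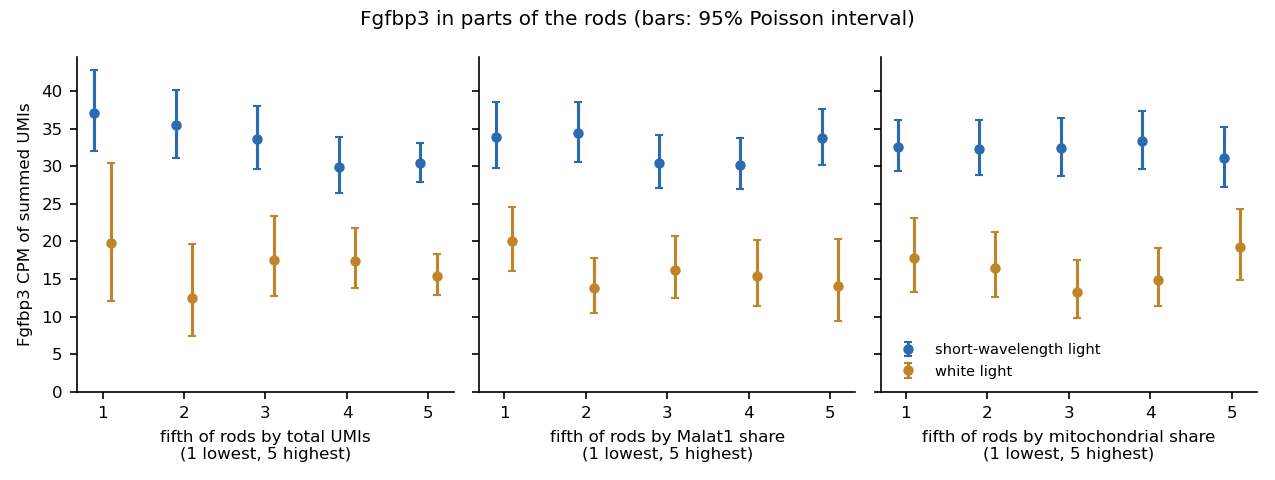
Fgfbp3 level in rods (vertical axis, CPM of summed UMIs) in 5 equal parts of the rods by total UMIs, Malat1 share and mitochondrial share (horizontal axes), 1 point per library and part with its 95% Poisson interval. The short-wavelength points lie between 30.0 and 37.2 CPM and the white-light points between 12.4 and 20.03 CPM. The parts are cuts of the same 2 libraries and not repeats.

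The genes around Fgfbp3 were examined after its difference was known. Btaf1, a TBP-associated ATPase, is transcribed in the opposite direction from a start near that of Fgfbp3, with a gap of 6463 bases between the annotated genes. The 250 bases before the RefSeq start of Fgfbp3 are shown because they lie in this gap, apart from the first bases of the longer GENCODE model (GRCm38.p6, chr19:36919600-36919849, minus strand). Capitals mark TAATCC, the core known to be bound by the photoreceptor factor CRX.
Fgfbp3 upstream: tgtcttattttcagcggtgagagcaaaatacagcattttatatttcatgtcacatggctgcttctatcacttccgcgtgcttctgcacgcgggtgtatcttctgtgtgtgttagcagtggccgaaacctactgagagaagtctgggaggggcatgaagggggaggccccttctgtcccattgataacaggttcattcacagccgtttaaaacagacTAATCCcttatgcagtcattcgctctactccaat
TAATCC was searched with its reverse complement GGATTA on both strands, in windows from 250 bases before to 50 bases after each start. The single match in the Fgfbp3 window begins 34 bases before the start. The motif is present in 2320 of 32851 such windows (7.06%), and Fgf2, Fgfr2 and Fgfr3 have no match in theirs, so its presence is a description of the letters only.

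Of the 12 genes that start within 500 kb of Fgfbp3, 11 had at least 50 UMIs in rods. Fgfbp3, chosen for this difference, had a ratio interval above 1. Of the other 10, Btaf1 and Ide had intervals above 1 and Hectd2, Cpeb3 and March5 below 1, beside 14.4% and 13.8% of all 13052 genes with that many UMIs. Btaf1 stood at 203 and 159 CPM in rods, a ratio of 1.28 (1.22 to 1.33), and at 123 and 80.9 CPM in cones, a ratio of 1.53 (1.22 to 1.93). Without the deepest droplets the interval of Btaf1 in cones spanned 1. Ide, the insulin-degrading enzyme that starts 418 kb away, stood at 80.6 and 56.2 CPM in rods, a ratio of 1.43 (1.34 to 1.54). A stricter rod gate raised the limits and also dropped rods with any UMI of another class's markers, cone opsins aside. It left 1147 and 257 rods, and there the log2 ratio of Ide was 0.40, with an interval of -0.20 to 1.06. Tnks2, a tankyrase and the nearest neighbour on the other side, was at 366 and 361 CPM, a ratio of 1.01 (0.985 to 1.04). Btaf1 and Ide, like Fgfbp3, had intervals above 1 in every part of the rods by depth, Malat1 share and mitochondrial share. These parts are cuts of the same 2 libraries and not repeats. Btaf1 and Ide were picked out here for their intervals above 1 in all these rods, so the parts add no support. Cpeb3 and March5, with ratios of 0.947 and 0.919, lie between Btaf1 and Ide. A shared pattern of the region was not tested.

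**Figure D3:**
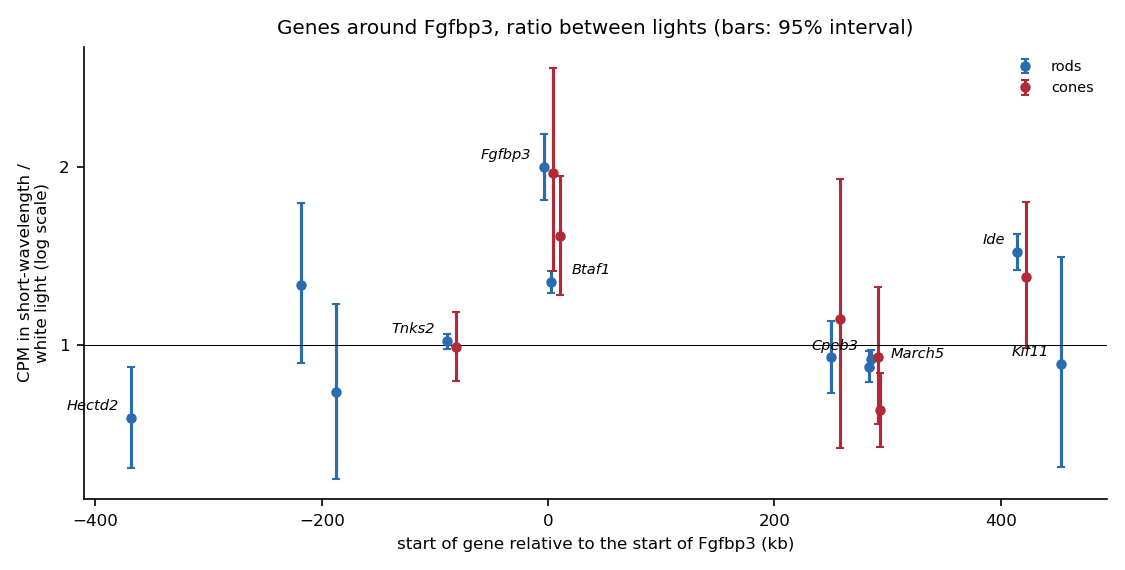
Ratio of CPM between short-wavelength and white light (vertical axis, log scale) for genes around Fgfbp3 against the distance of their start from that of Fgfbp3 in kb, for rods and cones, where a gene had at least 50 UMIs in that class. Bars are 95% intervals. Fgfbp3, Btaf1 and Ide lie above 1 in rods (2.00, 1.28 and 1.43), while Tnks2 is at 1.01.

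Droplets with an Fgfbp3 UMI were then compared with droplets without one, within each library. Each of the 1361 and 282 Fgfbp3-positive rods was matched to 3 negative rods of nearest depth, since positive rods were deeper (medians 2822 and 3592 UMIs against 2368 and 2736 in all negative rods). The matched negatives had medians of 2822 and 3590 UMIs. In short-wavelength light 0 of 7378 genes (0%) had an interval wholly beyond 1.5-fold in either direction. At the looser limit of an interval that excludes 1, the counts there were 282 higher (3.82%) and 260 lower (3.52%). In white light the counts at the looser limit were 267 (3.6%) and 238 (3.21%). At the 1.5-fold limit no gene was higher there (0%), and 4 of 7417 (0.0539%) were lower: Surf4, Zfp804b, Kcnip4 and Aspscr1. All 4 reached the 20 CPM minimum only through the negative rods, and the count fell to 0 when negatives were also matched on Malat1 share and to 1 with 1 negative for each positive. In the short-wavelength library Surf4 was at 1.01-fold and Kcnip4 at 0.903-fold, and Aspscr1 was at 1.25-fold, in the other direction. Zfp804b was lower in both libraries, at 0.616-fold (0.442 to 0.844) and 0.378-fold (0.214 to 0.629).

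The 2 libraries shared few of these differences. Of 7194 genes measured in both, the interval excluded 1 in both libraries for 15 higher and 8 lower genes, and for 13 genes in opposite directions. Of the 272 genes higher in the first library, 145 had a ratio above 1 in the other. Fgf2 was at 0.954-fold (0.755 to 1.20) and 1.39-fold (0.915 to 2.08) in positive rods. Fgfr2 was at 1.02-fold (0.961 to 1.08) and 0.933-fold (0.829 to 1.05). These intervals spanned 1, as did those of the neighbours Btaf1 (0.985-fold and 0.932-fold) and Ide (1.01-fold and 0.830-fold) in Fgfbp3-positive rods. Edn2, the gene of the injury peptide endothelin 2, was 2.05-fold higher (1.39 to 2.99) in the short-wavelength library, from 49 UMIs against 70, and 1.02-fold (0.395 to 2.36) in the white-light library. Gadd45b (1.91-fold, 1.36 to 2.67) and Cebpd (1.64-fold, 1.10 to 2.42) were also higher in short-wavelength light, while Stat3 was at 0.938-fold (0.815 to 1.08). In white light the intervals of Gadd45b, Cebpd and Stat3 spanned 1. Edn2, Gadd45b and Cebpd were below 20 CPM in all these rods. Markers of other classes were read in the same rods. The 8 cone markers together were at 1.07-fold (1.002 to 1.14) in short-wavelength light and 0.975-fold (0.846 to 1.12) in white light, and the 8 rod bipolar markers at 1.02-fold (0.989 to 1.06) and 0.926-fold (0.866 to 0.990). Müller glia markers summed to 105 and 102 CPM in positive and negative rods of short-wavelength light (1.03-fold, 0.935 to 1.13) and to 119 and 108 CPM in white light (1.10-fold, 0.916 to 1.32). Among them Rlbp1 was 2.29-fold higher (1.30 to 3.99) in white light alone, and at 0.932-fold (0.692 to 1.24) in short-wavelength light. Slc1a3 alone had an interval above 1 in short-wavelength light, and no marker of Müller glia had one below 1 in either library. The largest number of Fgfbp3 UMIs in a rod was 4 and 2, and 106 and 8 rods had at least 2, so a positive rod mostly rests on 1 molecule.

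Fgf2, ENSMUSG00000037225, the ligand known as basic FGF, lies on the plus strand of chromosome 3 (mm10, 37348346 to 37410108). It overlaps the antisense RNA Fgf2os and the gene Nudt6, both on the other strand. The sources used here do not state how strand was counted. Rods, which were 93.5% and 89.9% of the droplets kept, held 91.4% and 86.1% of all 932 and 396 Fgf2 UMIs. The level of Fgf2 in rods was the same in both libraries within counting error. It stood at 18.7 CPM (17.5 to 20.02, from 852 UMIs) and 19.1 CPM (17.1 to 21.2, from 341 UMIs), a ratio of 0.982 (0.865 to 1.12). Müller glia had the highest level, 56.6 CPM (38.7 to 79.9) and 68.2 CPM (42.8 to 103), from 32 and 22 UMIs. That was 3.02-fold (2.06 to 4.30) and 3.58-fold (2.21 to 5.51) above rods. Cones stood at 8.31 and 12.9 CPM, below rods in short-wavelength light (0.444-fold, 0.291 to 0.651), with an interval that spanned 1 in white light (0.677-fold, 0.375 to 1.13). Gnat1 stood at 1113 and 1380 CPM in cones, and the part of carried-over rod RNA in their Fgf2 level was not tested. Rod bipolar cells held 2 Fgf2 UMIs in each library, and microglia or macrophages 4 and 1. Over the parts of rods by depth, Malat1 share and mitochondrial share the ratio between lights ran from 0.704 to 1.84, with an interval above 1 in 1 part by mitochondrial share, below 1 in another (0.704, 0.546 to 0.911) and spanning 1 in every part by depth or Malat1 share.

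Rods with Fgf2 UMIs differed from other rods in a small set of genes, and did so in both libraries. This comparison was added after the data were seen. At least 2 Fgf2 UMIs were held by 94 of 727 positive rods in short-wavelength light and by 38 of 284 in white light, and the largest number in a rod was 5 and 7. Against 3 depth-matched negatives each, 11 of 7399 genes (0.149%) were wholly above 1.5-fold in the short-wavelength library and none (0%) below. In the white-light library 4 of 7429 genes (0.0538%) were above that limit and none (0%) below. At the looser limit the counts were 340 higher (4.6%) and 289 lower (3.91%), and 328 (4.42%) and 257 (3.46%). All 11 genes had intervals above 1 in the white-light library too. With the stricter rod gate, which left 1147 and 257 rods, 1 gene was higher and 1 lower in short-wavelength light, and 2 were lower and none higher in white light. The droplets of 1 library are not replicates, so the other library is the only repeat. Edn2, Cebpd, Gadd45b and Fgf2os reached the 20 CPM minimum only through the positive rods, so their passing the limit is no support in itself.

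Edn2 and Cebpd, which led the 11 genes, belong to the list of photoreceptor stress signals, drawn up with earlier results known. All 3 measured genes of that list, Edn2, Cebpd and Stat3, had intervals above 1 in both libraries, where all genes with 10 UMIs in each gave 0.587% higher and 0.187% lower. The choice of the list and, for Cebpd in white light, a minimum reached only through the positive rods leave this count a description. Edn2 stood at 31.6 CPM in positive and 2.77 CPM in negative rods of the short-wavelength library, 11.4-fold (7.26 to 18.5), and 3.68-fold higher (1.99 to 6.88) in the white-light library. Cebpd, a transcription factor of acute inflammatory responses, was 8.88-fold higher (5.77 to 14.0) and 8.17-fold higher (3.50 to 21.2). Gadd45b, a stress-inducible growth arrest gene, was 4.30-fold (2.91 to 6.41) and 3.66-fold (2.11 to 6.39) higher. Fgf2os, which overlaps Fgf2 in part on the opposite strand, was 5.62-fold (3.91 to 8.15) and 2.48-fold (1.30 to 4.68) higher. It is counted as a gene of its own. The strand setting is not stated, and how far reads in the overlap were assigned to the other gene was not tested.

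The other 7 genes are outside the lists. Antxr2, an anthrax toxin receptor that binds matrix proteins, was 3.19-fold (2.69 to 3.79) and 2.58-fold (2.00 to 3.32) higher. B3galt1, a galactosyltransferase, was 2.64-fold and 2.19-fold higher. Gnb3, the transducin beta subunit typical of cones, was 2.14-fold (1.93 to 2.38) and 2.12-fold (1.82 to 2.48) higher, on 614 and 286 UMIs in positive rods. The cone opsin Opn1sw was at 1.01-fold (0.822 to 1.24) and 1.08-fold (0.779 to 1.49) in the same rods, and the 8 cone markers together at 1.02-fold (0.929 to 1.11) and 0.900-fold (0.779 to 1.04). Dpp10, E2f6 and Klhl29 were 2.06-fold, 1.98-fold and 1.70-fold higher in short-wavelength light and 1.88-fold, 1.86-fold and 1.46-fold higher in white light, and the last of the 11 was a predicted gene.

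Genes not called at the 1.5-fold limit were read from the lists. Stat3, the transcription factor downstream of LIF-type cytokines, was 1.68-fold (1.43 to 1.98) and 1.37-fold (1.09 to 1.71) higher in Fgf2-positive rods. Egr1, an immediate-early target of ERK, was 2.70-fold (1.77 to 4.11) and 2.59-fold (1.49 to 4.48) higher but below 20 CPM in all these rods. Of 9 measured feedback and target genes, Egr1 alone had an interval above 1 in both libraries, and none had one below 1 in both. Spry2 was at 1.09-fold (0.929 to 1.28) and 0.733-fold (0.574 to 0.926). Fgfbp3 itself was at 0.981-fold (0.768 to 1.24) and 1.15-fold (0.722 to 1.79), so rods with Fgf2 UMIs did not carry a detectable excess of Fgfbp3 UMIs. Fgfr2 was at 1.01-fold and 0.997-fold. The 12 Müller glia markers summed to 109 and 102 CPM in positive and negative rods of short-wavelength light (1.07-fold, 0.937 to 1.21) and to 108 and 102 CPM in white light (1.06-fold, 0.879 to 1.27). Single markers had intervals above 1, Apoe and Clu in the first library and Rlbp1, Vim and Clu in the other. In the white-light library 1 marker had an interval below 1. Fgf2 and Cebpd are also higher in Müller glia than in rods, while Edn2 had 1 and 0 UMIs in Müller glia. The part of carried-over glial RNA in these values was not tested.

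Over all rods the intervals of Edn2 and Cebpd between lights spanned 1. Edn2 stood at 5.47 and 5.03 CPM, a ratio of 1.09 (0.851 to 1.40), and Cebpd at 5.21 and 4.86 CPM, a ratio of 1.07 (0.834 to 1.39). Fgf2-positive rods made up 4.83% and 5.55% of rods.

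**Figure D4:**
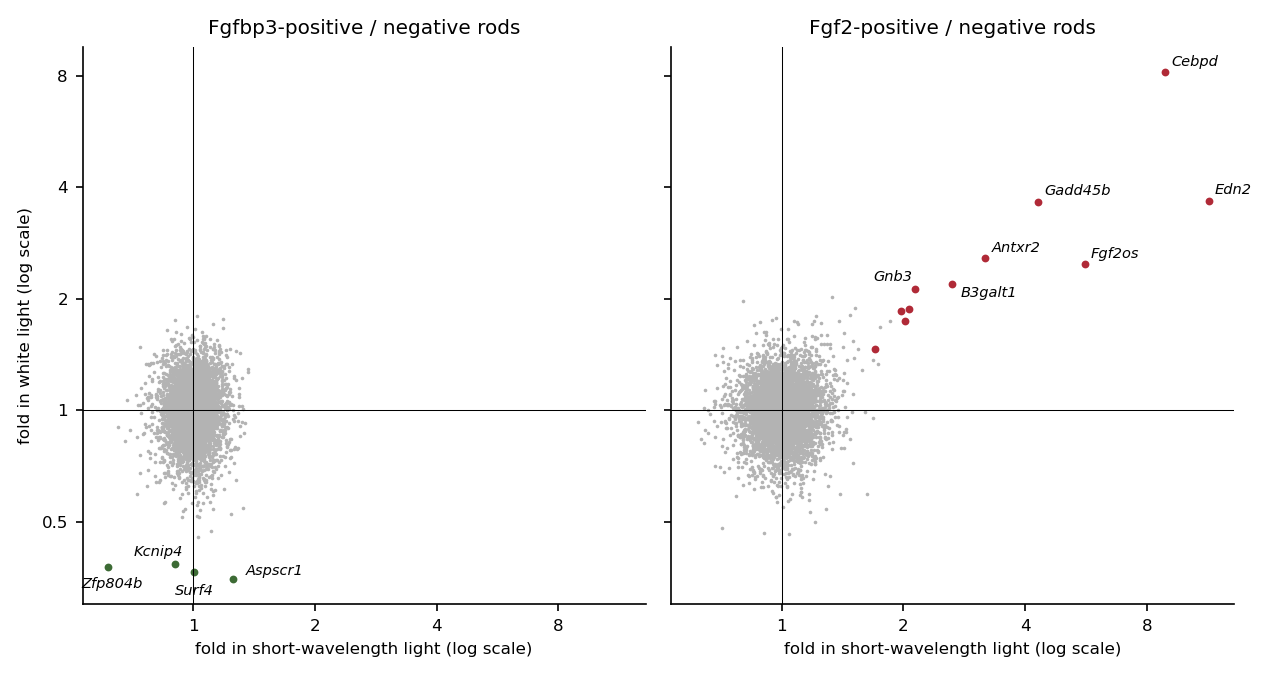
Fold difference between rods with and without a UMI of Fgfbp3 (first panel) or Fgf2 (other panel), short-wavelength library on the horizontal and white-light library on the vertical axis, both log scales, 1 point per gene. Red points have an interval wholly beyond 1.5-fold in the short-wavelength library: Fgf2 has 11, all above 1 in both libraries, and Fgfbp3 has 0. The 4 green points mark the genes beyond that limit in Fgfbp3-positive rods of the white-light library, all lower.

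Fgfr1, ENSMUSG00000031565, which encodes FGF receptor 1, lies on the plus strand of chromosome 8 (mm10, 25513654 to 25575718). Its UMIs were concentrated in Müller glia. These were 0.615% and 0.843% of the droplets kept and held 78.1% (70.7 to 84.5) and 79.0% (66.8 to 88.3) of all 151 and 62 Fgfr1 UMIs. The level in Müller glia was 209 CPM (173 to 250) and 152 CPM (112 to 201), against 0.461 and 0.671 CPM in rods, 452-fold (283 to 758) and 227-fold (119 to 468). An Fgfr1 UMI was found in 57 of 99 and 24 of 48 Müller glia and in 0.140% and 0.235% of rods, at median depths of 5480 and 7120 UMIs in Müller glia and 2395 and 2765 in rods. After thinning every droplet to 1000 UMIs the shares were 13.5% and 7.69% of Müller glia and 0.0465% and 0.0823% of rods. Cones held 4 and 0 UMIs, rod bipolar cells 0 and 1 and microglia or macrophages none in either library, which allows up to 9.59 and 16.0 CPM there. The ratio between lights in Müller glia was 1.37 (0.977 to 1.96), which spanned 1, and without the deepest droplets its log2 value was -0.15 (-1.35 to 0.98). As a mean over droplets it was 0.57 (0.08 to 1.08).

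Fgfr2, ENSMUSG00000030849, encodes FGF receptor 2 and lies on the minus strand of chromosome 7. Its counts are uncertain as a measure of the receptor. In GENCODE M21 the gene runs over 2960900 bases (mm10, 130162451 to 133123350) because of 1 of its 27 transcripts. The next longest spans 103813 bases, close to the RefSeq gene of 104358 bases. The long model overlaps 48 other genes in the matrices, 22 of them on the same strand, among them Ate1, Nsmce4a, Fam53b, Oat and Ctbp2. The annotation release used for counting and whether intronic reads were counted are not given in the sources used here, so how much of the count comes from outside the receptor was not tested. UMIs assigned to Fgfr2 were found in every class, and the part of carried-over rod RNA outside rods was not tested. Rods stood at 286 and 291 CPM (13025 and 5209 UMIs), a ratio of 0.983 (0.952 to 1.02). Müller glia stood at 331 and 385 CPM, cones at 235 and 246, rod bipolar cells at 213 and 248 and microglia or macrophages at 150 and 176 CPM. Müller glia were 1.16-fold (0.995 to 1.34) and 1.32-fold (1.10 to 1.58) above rods, and microglia or macrophages 0.525-fold (0.386 to 0.699) and 0.603-fold (0.414 to 0.848). Levels of Fgfr2 over the 5 classes thus lay between 150 and 385 CPM, where those of Fgfr1 ran from 0 to 209 CPM.

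Fgfr3, ENSMUSG00000054252, the third FGF receptor gene, lies on the plus strand of chromosome 5 (mm10, 33721674 to 33737068). It was at the edge of detection, with 7 and 1 UMIs, all in rods. Müller glia held none, which allows up to 5.31 and 9.30 CPM, and no pattern can be read from so few molecules.

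In Müller glia, the class with most Fgfr1, the listed genes were compared with rods in both libraries. The lists of the pathway were drawn up with earlier results of these data known. Of 62 listed genes with at least 10 Müller glia UMIs, the members and 3 stress genes included, 32 were wholly above 1.5-fold in both libraries and 2 below, where all genes gave 20.7% and 7.77%. The minimum is on Müller glia UMIs, so genes high in rods and low in Müller glia were left out and these counts are no support for a direction. Of the 20 genes of the feedback and transcriptional target list 14 reached the minimum, and 13 of these were higher. Among those left out, Dusp5, another ERK phosphatase, stood at 1.77 and 3.10 CPM in Müller glia against 18.5 and 20.7 CPM in rods. Flrt3 and Spry3 were left out as well, with 2 and 1 UMIs and with 1 and 0 UMIs in Müller glia. Dusp6, the ERK phosphatase, stood at 84.9 and 112 CPM in Müller glia against 0.286 and 0.559 CPM in rods. Etv5, an ETS transcription factor induced by FGF, stood at 157 and 130 CPM against 4.11 and 5.09 CPM. Spred1, a Sprouty-related brake on RAS, was 10.2-fold and 10.9-fold higher. Spry2, a Sprouty gene, was the exception among the 14, at 95.5 and 52.7 CPM against 66.9 and 79.1 CPM in rods.

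The 3 measured ligands, Fgf1, Fgf2 and Fgf9, were all above 1.5-fold in Müller glia. Fgf9, a ligand known in retinal development, stood at 154 and 152 CPM in Müller glia, 122 and 95.8 CPM in rod bipolar cells and 32.4 and 34.4 CPM in rods. Among carriers and enzymes of heparan sulfate 6 of 14 were higher, among them the glypican Gpc6 (778 and 971 CPM against 8.13 and 9.73 CPM) and the sulfatase Sulf1 (571 and 583 CPM against 0.725 and 1.06 CPM). The relay from receptor to ERK gave 3 of 20 higher in Müller glia (Gab1, Shc1 and Plcg1) and 2 lower. Of all genes 20.7% were higher and 7.77% lower by the same rule. Gab1, a docking adaptor of FGF receptors, was 22.2-fold and 22.6-fold higher. Among intracellular FGF homologous factors, which bind sodium channels and are not secreted, 3 of 4 were higher, with Fgf13 at 718 and 735 CPM against 1.49 and 2.01 CPM in rods.

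Between lights, most FGF pathway genes in rods moved little, and those with an interval off 1 were mostly lower in short-wavelength light. The 96 genes of the lists without the stress genes gave 78 with at least 10 UMIs in rods. The interval excluded 1 upward for 3 of them and downward for 16, where all 16634 genes gave 11.6% and 12.9%. The median log2 ratio was -0.03 for the lists and 0.00 for all genes (with 5 CPM added to each level). With trimmed-mean scaling the counts were 5 and 14, beside a median of all genes of 0.04. The 3 higher genes were Fgfbp3, the ligand Fgf20 (6.81 and 4.70 CPM, 1.45-fold, 1.14 to 1.87) and the adaptor Shc1 (1.26-fold, 1.005 to 1.60). Of the 16 lower genes, Fgf14, Ndst4, Hs6st2, Hs6st3, Rps6ka1, Spry1 and Ccnd1 were below 3 CPM in both libraries. Among all 16634 genes, with no minimum CPM, 138 were wholly below and 24 wholly above the 1.5-fold limit. With the stricter rod gate 2 pathway genes were higher and 0 lower.

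The feedback and target genes gave 5 lower and 0 higher of 17 measured. For this and the following lists, all genes gave 12.9% lower and 11.6% higher. Spry2 stood at 66.9 and 79.1 CPM in rods, 0.845-fold (0.793 to 0.900). Flrt3, a transmembrane partner of FGF receptors, stood at 12.02 and 16.2 CPM, 0.741-fold (0.642 to 0.858). Egr1 stood at 6.88 and 9.11 CPM, 0.755-fold (0.623 to 0.918), and Spry1 and Ccnd1 were lower from 22 and 112 UMIs over both libraries. Spry1, Ccnd1 and Egr1 were at least 10-fold higher in Müller glia than in rods, and the part of carried-over glial RNA in their rod values was not tested. The relay list gave 1 higher and 6 lower of 21, with Braf, a RAF kinase, at 251 and 278 CPM (0.902-fold, 0.872 to 0.932). Heparan sulfate genes gave 0 higher and 4 lower of 22, with the sulfotransferase Hs6st1 at 12.2 and 14.8 CPM (0.825-fold, 0.711 to 0.959) and the other 3 below 3 CPM. Of 8 secreted FGFs measured in rods, Fgf20 alone had an interval off 1, and of 4 receptors and co-receptors none did. Of the 4 intracellular FGF homologous factors 1 was lower, Fgf14, at 0.571 and 1.23 CPM. The other binding protein, Fgfbp1, had 12 and 4 UMIs in rods. Of 7 stress genes 1 was lower, Stat3 at 51.7 and 59.1 CPM (0.874-fold, 0.812 to 0.940).

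**Figure D5:**
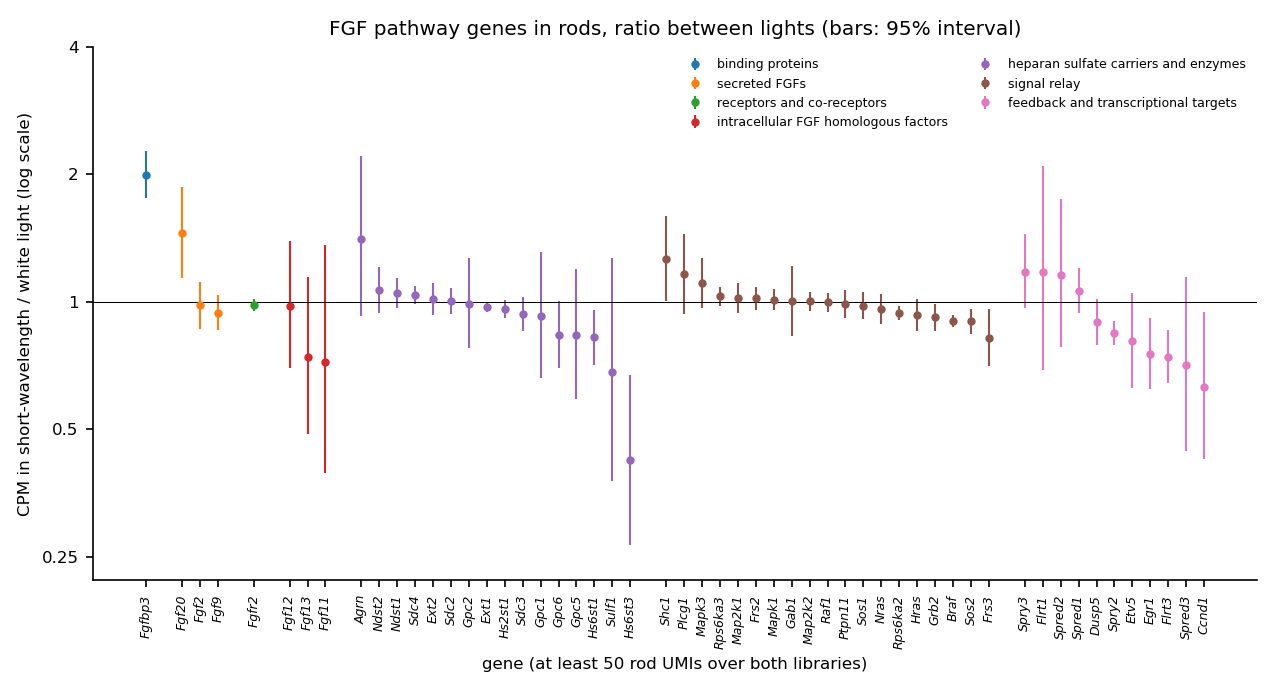
Ratio of CPM between short-wavelength and white light in rods (vertical axis, log scale) for FGF pathway genes with at least 50 UMIs (1 relay gene is not shown), grouped and coloured by list, with 95% intervals. Fgfbp3 (2.00) stands above the other genes, most of which lie near 1, and the feedback and target genes reach from 1.18 (Spry3) down to 0.631 (Ccnd1).

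In Müller glia the pathway lists gave 4 higher and 3 lower of 59 between lights, where all 9952 genes gave 3.28% and 3.84%. Egr1 (182 and 102 CPM, 1.78-fold, 1.19 to 2.72) and Spry2 (95.5 and 52.7 CPM, 1.81-fold, 1.03 to 3.33) were higher there, the opposite direction to rods. The difference between the classes was not tested. Of the 14 feedback and target genes measured in Müller glia, 3 had a ratio above 1 and 11 had one below. Their median log2 ratio was -0.12, beside 0.02 for all genes. The other higher genes were the phosphatase Ptpn11, from 28 and 6 UMIs, and the syndecan Sdc4. The 3 lower genes were 2 heparan sulfate genes and 1 relay gene. Cebpd, a stress gene outside the 59, was lower in Müller glia of short-wavelength light, at 200 and 295 CPM (0.679-fold, 0.512 to 0.901). In cones 2 of 54 listed genes were higher, Fgfbp3 and Gpc6, and 3 were lower, Gab1, Braf and Spred1, where all 11890 genes gave 5.66% and 4.86%.

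Genes with a pattern like each member were ranked by Pearson's r of log2(CPM + 5) over the 10 class and library values, among 9892 genes with at least 200 UMIs. These points share libraries and, through carried-over RNA, rod content, so r is a description. For Fgfbp3 the first was Rnpc3, a minor spliceosome component (r = 0.94), followed by Abcb8, Cystm1 and Fam162a. For Fgf2 it was St3gal4, a sialyltransferase (r = 0.98), followed by Cdc14a and Osbpl1a. For Fgfr1 the leading genes were Cav1, Col9a1, Rhou and Egfr, all with r above 0.99, and for Fgfr2 they were Hip1, Igf1r and Ncam1 (r = 0.98 for the first). Fgfr3 had too few UMIs to rank.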

How the data were processed

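Retina was profiled by 10x Genomics droplet sequencing, per the labels' protocols, in 1 library per light condition. The matrices deposited by the authors hold unnormalised UMI counts for each gene in each barcode. Their file headers name Cell Ranger 9.0.0, and the submitters' processing notes name mm10, Seurat and edgeR. The members and gene lists were chosen with earlier results of these data known, and the gate levels, the Fgf2-positive comparison and the neighbours of Fgfbp3 after seeing the data.

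A droplet stayed in if it had 300 genes or more and a mitochondrial share of no more than 20% (16095 and 5695 droplets did). Rods passed the rod gate and held no other class at 0.2% of UMIs from 3 markers. Droplets past the gates of 2 other classes (6 in each library) were removed as doublets, and no doublet caller was run. Between 0.5% and 0.75% of rod marker UMIs were held by 158 and 55 further droplets, and 290 and 95 rods lay between 0.75% and 1%. The rod class has no deposited annotation behind it. Counts were summed per class and library and scaled to CPM. Ratios carry the exact conditional binomial interval, and shares carry Clopper-Pearson intervals. A count of 0 was read as at most 3. Genes were named by a rule: the members and listed genes with 10 UMIs, and for each comparison the first in each direction beyond 1.5-fold (5 between lights, 10 for positive rods), ranked by the nearer bound. Genes outside the rule were named after their values were seen: those just outside the limit, the neighbours of Fgfbp3, the white-light calls, Fgf2os and markers of other classes. Thinning left out 8 and 258 rods. Positions are from GENCODE M21, matched by identifier for 32158 of 32285 genes, and 4 of 5 members had a RefSeq promoter. Values of 1 relay gene are not reported here. The steps were tested on simulated data. Alternatives covered filters, gates, doublets, scaling (edgeR 4.0.16, DESeq2 1.42.0), thinning, minimum counts and matching, in Python 3.11.15, scipy 1.17.1 and R 4.3.3.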

Additional observations from a re-analysis of the deposited data

How the results depend on the processing

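Over 22 results and 181 alternative values, 141 stayed within their limit, 40 moved and no called value changed sign. The log2 ratio of Fgfbp3 in rods, 0.999, lay between 0.94 and 1.14 under all 12 alternatives. The stricter gate, which also dropped rods with any UMI of another class's markers, cone opsins aside, left only 1147 and 257 rods. There 7 genes were higher and 0 lower between lights against 3 and 5, 0 pathway genes were lower against 16, and genes past 1.5-fold numbered 3 (1 lower) and 2 (both lower) in Fgfbp3-positive rods, against 0 and 4 lower. In Fgf2-positive rods they numbered 2 (1 lower) and 2 (both lower), against 11 and 4, all higher. With a minimum of 10 UMIs and none of CPM the counts were 24 higher and 138 lower between lights, 12 and 14 for Fgfbp3-positive rods and 38 and 25 for Fgf2-positive rods. Thinning to 1000 UMIs gave 1 higher and 3 lower pathway genes and left 60% and 50% of Fgfr1 UMIs in Müller glia. Pathway genes higher in rods numbered 5 with trimmed-mean and 5 with median-of-ratios scaling and 6 as a mean over droplets. With at least 2 UMIs to be positive, 1 gene passed for Fgfbp3 in short-wavelength light and 14 for Fgf2 in white light. In white light, Fgfbp3-positive rods gave 1 gene with 1 negative each and 0 when also matched on Malat1 share, and Fgf2-positive rods gave 8 without the deepest droplets and 9 when matched on Malat1 share. The log2 ratio of Fgfr2 in rods was -0.08 (-0.13 to -0.04) as a mean over droplets. For the moved values the cause was not tested. The pathway median in rods was -0.08 with 1 CPM added. Depth limits the classes other than rods: Fgfbp3 rested on 34 and 10 UMIs in Müller glia and Fgfr3 on 7 and 1 UMIs in all. No paired analysis was possible because each light condition has 1 library.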
